A study of Mus musculus with 5 samples.

Results

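Pparg encodes PPARgamma and Nr1h3 encodes LXRalpha, nuclear receptors that macrophages use to sense fatty acids and oxysterols. The genes described here are these receptors and 8 genes of lipid handling, most of them textbook targets of these receptors: Cd36 and Lpl for uptake, Fabp4 and Fabp5 for fatty acid binding, Plin2 for storage, and Abca1, Abcg1 and Apoe for sterol efflux. They were taken by gene symbol from the platform annotation, which gave 20 probe sets for the 10 genes, none of them shared with another symbol, out of 45037 probe sets in all. All 10 genes passed the filter on low values, among 17074 named genes that did.

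Macrophages in this series had entered Matrigel plugs, an injected gel of basement membrane proteins, under the skin of Balb/c SCID mice aged 7 to 12 weeks. All hosts, controls included, carried a transgenic T-cell receptor specific for an idiotype, and SCID mice make few other T cells and few B cells. The tumoricidal group (3 arrays, biological replicates) came from plugs that held MOPC315 myeloma cells, and the control group (2 arrays) from plugs that held an antigen-loss variant of this line. CD11b+ cells were sorted by flow cytometry at day 8, and the labels do not say whether mice were pooled or whether replicates shared an experiment. RNA was hybridised to Affymetrix mouse arrays.

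PPARgamma pairs with RXR on DNA and, when fatty acid ligands bind, raises genes that take up, bind and store fatty acids. LXRs pair with RXR in the same way, bind oxidised cholesterol, and raise the genes that move sterols out of the cell to lipoproteins. In macrophages both receptors are known for lipid loading and for dampening inflammatory genes.

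Signals below are linear probe-set signals after each array was scaled to a common median, in arbitrary units, with a floor of 4.79 under which values have no order. The deposited array medians ran from 15.4 to 18.7 in tumoricidal arrays and were 22.6 and 18 in control arrays. The choice of scaling moved the median log2 difference of all named genes, which was 0.13 with median scaling, -0.07 with the deposited scaling and 0.02 with quantile normalization. A member's difference within about that span of 0 therefore has no settled direction. Spike-in control probe sets, RNAs added to each sample during preparation or hybridisation, split the arrays into side A (tumoricidal replicates 1 and 2, control replicate 1) and side B (tumoricidal replicate 3, control replicate 2). Before scaling the BioC-3 control read 731, 660 and 186 on the tumoricidal arrays, by replicate number, and 653 and 199 on the control arrays. Both sides hold both groups, so differences are also given within each side.

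None of the 10 genes, and none of their 20 probe sets, passed limma's test at an adjusted p under 0.05 over all 41053 tested probe sets. Calls were rare in general: 0.0341% of probe sets were called higher, 0.0171% lower, and 0.0644% of named genes were called. At an unadjusted p under 0.05 there were 3 member genes, Pparg, Fabp4 and Lpl, against 8.91% of named genes. In the same 3 genes the groups did not overlap, while 23.5% of named genes had groups fully apart. Being apart with a log2 difference of at least 1, as these 3 were, held for 5.58% of all named genes. Of the 9931 named genes above the median signal, 29.0% were apart (24.2% higher and 4.81% lower) and 4.91% were apart by that much. The share of members apart, 30.0%, was near that 29.0%. The members were chosen with earlier results of these data known, so these counts are descriptive.

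Pparg (probe set 1420715_a_at, chromosome 6) had scaled signals of 37.8, 41.3 and 37.2 in tumoricidal macrophages, against 87.8 and 81.0 in control macrophages. All tumoricidal arrays lay below both control arrays, and with median scaling the spread inside each group was small beside the gap between them. The means were 38.8 ± 2.22 (SD, n = 3) in tumoricidal and 84.4 ± 4.79 (SD, n = 2) in control macrophages, with a difference of -1.12 on the log2 scale (SE 0.23, 95% interval -1.68 to -0.56, limma adjusted p = 0.263). Control signal was thus 2.18 times tumoricidal signal, and 1.89% of named genes had a lower log2 difference. The difference was -1.15 within side A and -1.12 within side B, and -1.35 with the deposited scaling. The deposited signals spread more inside both groups, at 37.2, 42.9 and 31.8 in tumoricidal and 110.2 and 81.0 in control macrophages. Pparg had no other probe set.

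Nr1h3, the LXRalpha gene (probe set 1450444_a_at, chromosome 2), overlapped between groups. Its signals were 128, 83.8 and 115 in tumoricidal macrophages and 87.4 and 102 in control macrophages. Tumoricidal replicate 2 was the lowest of all 5 arrays. The log2 difference was 0.18 (SE 0.29, 95% interval -0.52 to 0.89, limma adjusted p = 0.881), and it was -0.05 with the deposited scaling, so no direction is given. Unlike that of Pparg, its interval holds 0.

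**Figure D1:**
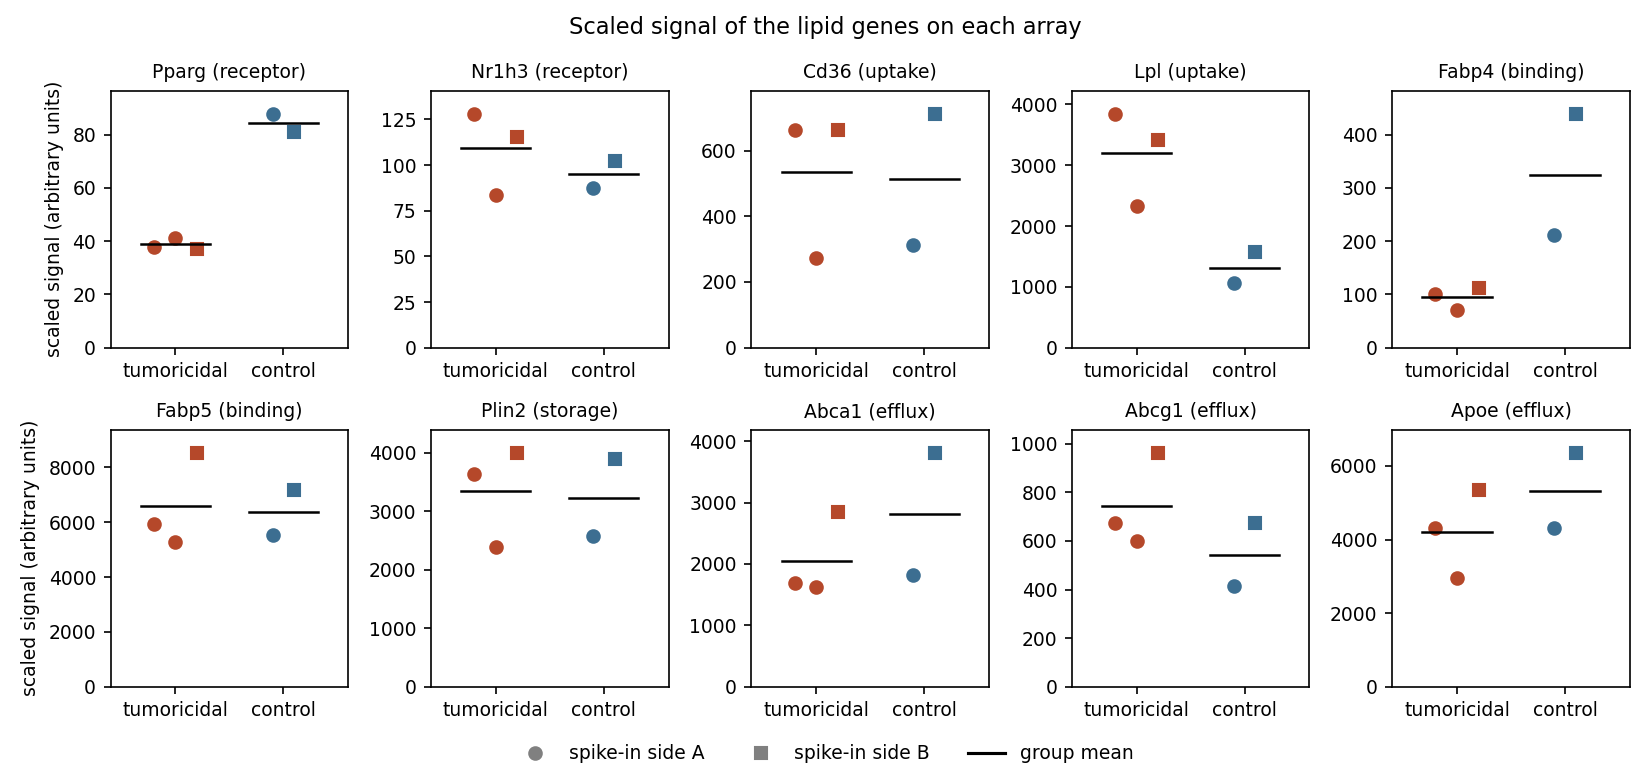
Scaled signal (arbitrary units, axes from 0) of the 10 lipid genes on each array, tumoricidal on the left and control on the right of each panel. Circles are spike-in side A, squares side B, and lines the group means. Pparg and Fabp4 lie lower and Lpl higher on every tumoricidal array than on either control array, and the other 7 genes overlap.

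Among the uptake genes, Lpl showed the clearest separation. It encodes lipoprotein lipase, which macrophages secrete and which frees fatty acids from triglyceride-rich lipoproteins. Its brighter probe set (1415904_at, chromosome 8) had 3844, 2336 and 3421 in tumoricidal macrophages, against 1064 and 1571 in control macrophages. The lowest tumoricidal array exceeded the highest control array. Means were 3200 ± 778 (SD, n = 3) in tumoricidal and 1318 ± 358 (SD, n = 2) in control macrophages, that is 2.42 times (log2 difference 1.28, SE 0.34, 95% interval 0.44 to 2.11, limma adjusted p = 0.399). A log2 difference above that of Lpl was found for 2.32% of named genes. Its other probe set (1431056_a_at) gave 859, 582 and 910 in tumoricidal macrophages, against 284 and 357 in control macrophages, with a log2 difference of 1.27. Both probe sets were also apart with the deposited scaling and with quantile normalization, where the difference of the brighter one was 1.05 and 0.93. Within sides A and B it was 1.49 and 1.12.

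Cd36 encodes a scavenger receptor that takes up oxidised lipoproteins and long-chain fatty acids, and its groups overlapped on all 3 probe sets. The brightest (1450883_a_at, chromosome 5) had 662, 274 and 664 in tumoricidal macrophages and 313 and 712 in control macrophages. Each group held both a high and a low array, so the spread inside the groups exceeded the difference between them (log2 0.07, SE 0.56, 95% interval -1.31 to 1.44, limma adjusted p = 0.98). The other probe sets differed by -0.09 and -0.10. With the deposited scaling the brightest probe set gave -0.16, so Cd36 has no settled direction.

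Fabp4, the adipocyte-type fatty acid binding protein that macrophages also make and a direct PPARgamma target, was the lowest of the members relative to control. On its brightest probe set (1417023_a_at, chromosome 3) tumoricidal macrophages had 101, 69.9 and 113, against 211 and 439 in control macrophages. The control arrays differed from each other by more than the tumoricidal arrays did, and every tumoricidal array lay below both. The log2 difference was -1.71 (SE 0.41, 95% interval -2.73 to -0.70, limma adjusted p = 0.352), with means of 94.5 ± 22.1 (SD, n = 3) in tumoricidal and 325 ± 161 (SD, n = 2) in control macrophages. A lower difference than this was found for 0.392% of named genes. Without control replicate 2 it was -1.18 and without control replicate 1 it was -2.24.

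The other probe sets of Fabp4 pointed the same way. Probe set 1451263_a_at had 33.8, 99.1 and 68.0 in tumoricidal macrophages, against 297 and 247 in control macrophages (log2 difference -2.15, limma adjusted p = 0.319). It ranked the 2 control arrays in the opposite order to 1417023_a_at, so the size of the gap within the control group is not settled by these probe sets. The dim probe sets 1425809_at and 1424155_at had log2 differences of -1.92 and -0.93, with 1 and 2 tumoricidal arrays at the floor, which makes these values bounds. Of the 20 member probe sets, 7 had groups fully apart (4 of Fabp4, 2 of Lpl and 1 of Pparg), or 35.0%, against 20.9% of all tested probe sets. By direction 2 were higher and 5 lower, against 13.3% and 7.6% of all. Probe sets of the same gene are not independent, so these counts restate the separation of Fabp4, Lpl and Pparg. With quantile normalization the dim 1424155_at overlapped.

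Fabp5, the epidermal-type paralogue of Fabp4 and also on chromosome 3, was bright and overlapped. Probe set 1416021_a_at had 5948, 5275 and 8533 in tumoricidal macrophages and 5545 and 7192 in control macrophages. Tumoricidal replicate 3 was the highest array and tumoricidal replicate 2 the lowest. The log2 difference was 0.03 (SE 0.31, 95% interval -0.74 to 0.80, limma adjusted p = 0.982), and -0.20 with the deposited scaling. The second probe set, 1416022_at, gave -0.25. Fabp5 relative to Fabp4 on the same array, with the control mean set to 1, was 2.84, 3.63 and 3.64 in tumoricidal macrophages, against 1.27 and 0.789 in control macrophages. The paralogues thus stood in a higher ratio on every tumoricidal array than on either control array.

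Storage was represented by Plin2, which coats lipid droplets and whose transcript follows the fatty acid load of a cell. Its probe set (1448318_at, chromosome 4) had 3642, 2395 and 4000 in tumoricidal macrophages and 2578 and 3887 in control macrophages. The groups covered nearly the same range. Means were 3345 ± 842 (SD, n = 3) in tumoricidal and 3232 ± 926 (SD, n = 2) in control macrophages, with a difference of 0.05 on the log2 scale (SE 0.35, 95% interval -0.81 to 0.90, limma adjusted p = 0.977). Quantile normalization turned it to -0.29 with the groups apart, so its direction depends on the scaling.

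With median scaling the groups of the sterol efflux genes overlapped as well, and their differences did not share a sign. Abca1 encodes the transporter that loads cholesterol onto lipid-poor apolipoprotein A-I, and its brightest probe set (1421840_at, chromosome 4) had 1681, 1629 and 2842 in tumoricidal macrophages and 1816 and 3809 in control macrophages. The side B arrays, tumoricidal replicate 3 and control replicate 2, were the highest of their groups. Its log2 difference was -0.41 (SE 0.44, 95% interval -1.49 to 0.68, limma adjusted p = 0.853), -0.13 within side A and -0.42 within side B. Without control replicate 2 it was 0.13, so its sign rests on that array. It was -0.64 with the deposited scaling, where the groups overlapped, and -0.75 with quantile normalization, where all tumoricidal arrays lay below control. The dimmer Abca1 probe sets spread even more between sides, with 200, 119 and 410 in tumoricidal macrophages and 155 and 658 in control macrophages on 1421839_at.

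Abcg1, which passes cholesterol to mature high-density lipoprotein, had 672, 598 and 963 in tumoricidal macrophages and 415 and 673 in control macrophages on probe set 1423570_at (chromosome 17). Its log2 difference was 0.46 (SE 0.35, 95% interval -0.40 to 1.33, limma adjusted p = 0.813). Tumoricidal replicates 1 and 2 lay under control replicate 2, the first of them by a margin of less than 1 unit, but within each side the tumoricidal arrays were higher, by 0.61 in A and 0.52 in B. The second probe set, 1455221_at, gave 0.84, and 1.12 and 0.87 within the sides. All 17 alternatives computed for the brighter probe set kept the positive sign, from 0.12 to 0.81.

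Apoe encodes apolipoprotein E, which macrophages secrete and which accepts cellular cholesterol. Its probe set (1432466_a_at, chromosome 7) had 4305, 2956 and 5343 in tumoricidal macrophages and 4308 and 6355 in control macrophages. Means were 4201 ± 1196 (SD, n = 3) in tumoricidal and 5331 ± 1447 (SD, n = 2) in control macrophages, with a difference of -0.36 on the log2 scale (SE 0.35, 95% interval -1.24 to 0.52, limma adjusted p = 0.853). With the deposited scaling the groups were apart, at 4233, 3071 and 4571 in tumoricidal macrophages and 5409 and 6355 in control macrophages, a log2 difference of -0.59. They were also apart with quantile normalization, where the log2 difference was -0.66. The within-side differences were -0.27 in A and -0.25 in B.

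**Figure D2:**
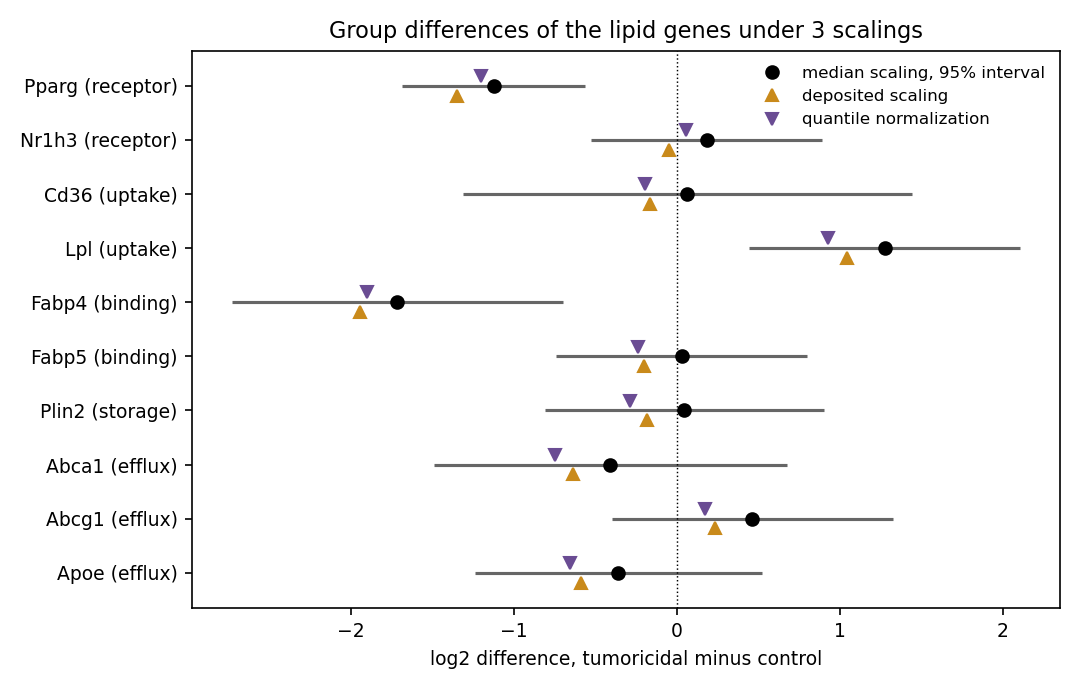
Log2 differences (tumoricidal minus control, x axis) of the 10 genes, with limma's 95% interval for median scaling (circle) and the value under the deposited scaling (triangle) and quantile normalization (inverted triangle). The intervals of Pparg, Fabp4 and Lpl leave out 0, and Nr1h3, Cd36, Fabp5 and Plin2 change sign between scalings.

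Promoter sequence was set beside these values for the 6 members that the RefSeq promoter table holds (Pparg, Nr1h3, Cd36, Plin2, Abca1 and Apoe, GRCm38.p6), in 11 windows from 250 bases before to 50 after a start. Both receptors bind direct repeats of the half-site AGGTCA on either strand, PPARgamma with 1 base between and LXR with 4. The exact repeat AGGTCANAGGTCA was in none of the 11 windows and in 0.0396% of all 32851 windows, and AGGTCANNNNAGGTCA was in none of the 11 and in 0.0152% of all. With up to 3 mismatches, an allowance chosen after the Abca1 window was seen, the repeat with 4 bases between was in 2 of the 11 windows, of Abca1 and Pparg, and in 21.9% of all. The Abca1 match, at bases -67 to -52 from the start, lies in the stretch known for LXR binding and is shown for that reason, with the match in capitals.
Abca1, chr4:53159937-53159972, minus strand: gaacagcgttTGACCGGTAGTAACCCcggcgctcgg

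A lone half-site AGGTCA, alone or inside a repeat, was in 4 of the 11 windows and in 16.3% of all windows. These 4 are shown with 10 bases on each side and the half-site in capitals (as TGACCT where it reads on the opposite strand), to set Pparg, whose groups were apart, beside Cd36 and Plin2, whose direction was not settled. Both kinds of gene hold the letters, which are a description and not a site of binding. The second Pparg half-site is also the start of its match to the repeat with mismatches.
Pparg, chr6:115361106-115361131, plus strand: ccgccgcctcAGGTCAgagtcgcccc
Pparg, chr6:115362330-115362355, plus strand: ggacgcgaggAGGTCAagaaggggcc
Cd36, chr5:17836109-17836134, minus strand: ctgcactttaTGACCTgagattttca
Plin2, chr4:86670262-86670287, minus strand: tcaggaccccTGACCTaagtcagaca

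Ratios of 2 genes on the same array do not depend on a factor that multiplies a whole array, such as the median or deposited scaling, though quantile normalization can alter them. They were compared for all 45 pairs of members, each set to a control mean of 1. Lpl relative to Fabp4 was 8.96, 7.86 and 7.13 in tumoricidal macrophages, against 1.19 and 0.842 in control macrophages, 7.95 times the control level on average. Lpl relative to Pparg was 6.63, 3.69 and 6.00 in tumoricidal macrophages and 0.791 and 1.26 in control macrophages. Both ratios were higher on every tumoricidal array than on either control array. This had to be so, since Lpl was higher and Fabp4 and Pparg lower on every tumoricidal array, and it adds no further evidence.

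The groups were fully apart in 27 of the 45 ratios (60.0%), against 33.1% of all pairs of named genes above the median signal. Of the 24 pairs that hold Lpl, Fabp4 or Pparg 20 were apart, and of the other 21 pairs 7 were (33.3%). These 21 pairs hold only genes whose groups overlapped, while the 33.1% also covers genes whose groups were apart. No share was computed for pairs of overlapping genes, so the 7 pairs have no matching background. Lpl, Fabp4 and Pparg were singled out because their groups did not overlap, so the 20 pairs and the 60.0% largely restate that separation. Abcg1 relative to Abca1 was among the 7, with 1.99, 1.83 and 1.69 in tumoricidal macrophages and 1.14 and 0.879 in control macrophages. Without a matching background, nothing is read from this ratio beyond its values. Abcg1 relative to Apoe was also apart, at 1.77 times the control level. The pairs named here were chosen after their values were seen. Plin2 relative to Fabp5, storage against binding, stood at 1.01 times the control level with the groups overlapping. Pairs share genes and a ratio cannot say which of its genes changed.

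**Figure D3:**
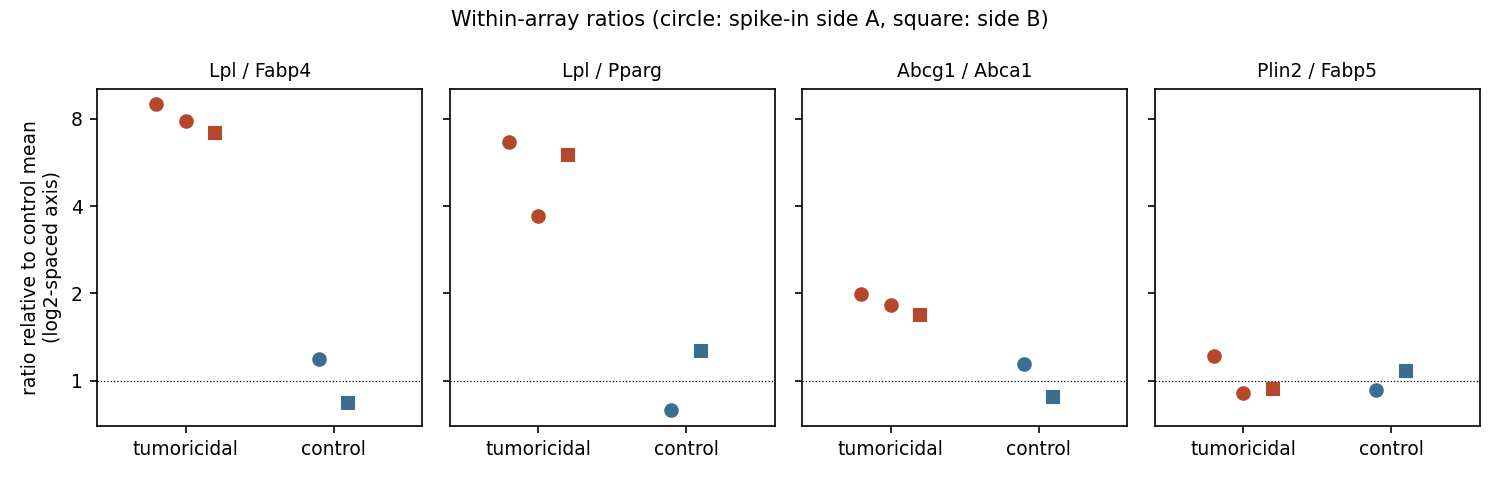
Within-array ratios of 4 pairs of members, relative to the control mean, on a log2-spaced axis, with circles for side A and squares for side B. Lpl over Fabp4, Lpl over Pparg and Abcg1 over Abca1 are higher on every tumoricidal array, while Plin2 over Fabp5 overlaps around 1.

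Other genes of the pathway were read from 6 lists. None of their tested genes passed limma's adjusted test in either direction, so the lists are described by counts and medians beside all named genes, where 17.0% were fully apart as higher, 6.51% as lower, and the median log2 difference was 0.13.

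Partners and coregulators of the receptors were measured for 12 of 15 genes, with a median log2 difference of 0.05. Groups were apart for 2 genes, both higher in tumoricidal macrophages. Ppargc1b, the coactivator PGC-1beta, which drives oxidative metabolism with PPAR and ERR receptors, had 286, 358 and 350 in tumoricidal macrophages, against 112 and 96.8 in control macrophages (a difference of 1.67 on the log2 scale, limma adjusted p = 0.154). Its difference was 1.52 within side A, 1.86 within side B and 1.44 with the deposited scaling. Ncoa1, a steroid receptor coactivator, differed by 0.30 (limma adjusted p = 0.813) and overlapped with both other scalings. The obligate partner Rxra, named after its values were seen, differed by -0.02.

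PPARgamma targets beyond the members were tested for 11 of 15 genes, with a median of -0.04. None was apart as higher and 2 were apart as lower, but neither met the naming rule's level because their signals were near the floor. They were Pdk4, which restrains glucose oxidation (log2 difference -1.03), and the adipokine gene Adipoq (-0.47), both named after their values were seen. The largest positive difference of the list, of the carnitine shuttle enzyme gene Cpt1a, was 0.70 with overlapping groups, and it too was chosen after its values were seen.

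LXR targets beyond the members were tested for 14 of 15 genes, with a median of 0.10. Apoc2, the apolipoprotein that activates lipoprotein lipase, had 121, 82.9 and 115 in tumoricidal macrophages, against 183 and 245 in control macrophages (log2 difference -1.02, SE 0.29, limma adjusted p = 0.45). It was lower within both sides (-0.87 and -1.09) and under all 3 scalings, while Lpl, the enzyme it activates, was higher. Fasn, the fatty acid synthase, differed by -0.49 with groups apart. Lpcat3, which puts polyunsaturated chains into phospholipids, and Srebf1, the regulator of fatty acid synthesis, were apart as higher by 0.42 and 0.24 and overlapped with both other scalings.

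Uptake and lysosomal genes were tested for 13 of 15, with a median of 0.02. Groups were apart for 3 of these genes, all higher, among them the scavenger receptor Msr1 (0.48) and the lysosomal sterol carrier Npc2 (0.42). Msr1 overlapped with quantile normalization, and Npc2 overlapped with both other scalings. Storage and droplet genes were tested for 14 of 15, with 13 positive log2 differences and a median of 0.31, where 10755 of the 17074 named genes were positive too. Groups were apart for 4 genes as higher and 1 as lower. The lower one, Mogat1, a monoacylglycerol acyltransferase gene named after its values were seen, had the largest difference of the list, -1.04, and was apart under all 3 scalings. Its signals were dim and below the naming rule's level, at 11.5, 12.3 and 9.58 in tumoricidal macrophages and 22.7 and 22.7 in control macrophages. Agpat2, an enzyme of triglyceride synthesis (0.58), and Pnpla2, the adipose triglyceride lipase (0.56), were apart as higher under all 3 scalings. With the deposited scaling the storage median was 0.08.

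Sterol efflux and esterase genes, a list that also holds Ch25h, were tested for 15 of 15 with a median of 0.01, and the largest difference in the 6 lists was that of Ch25h. Ch25h makes 25-hydroxycholesterol, an oxysterol that LXRs bind and that also blocks sterol synthesis. It had 916, 881 and 1164 in tumoricidal macrophages, against 214 and 168 in control macrophages, a difference of 2.37 on the log2 scale (SE 0.27, adjusted p by limma 0.0831). Its difference was 2.07 within side A and 2.79 within side B. Tspo, a mitochondrial sterol-binding protein, was apart as higher by 0.64, and overlapped with quantile normalization.

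**Figure D4:**
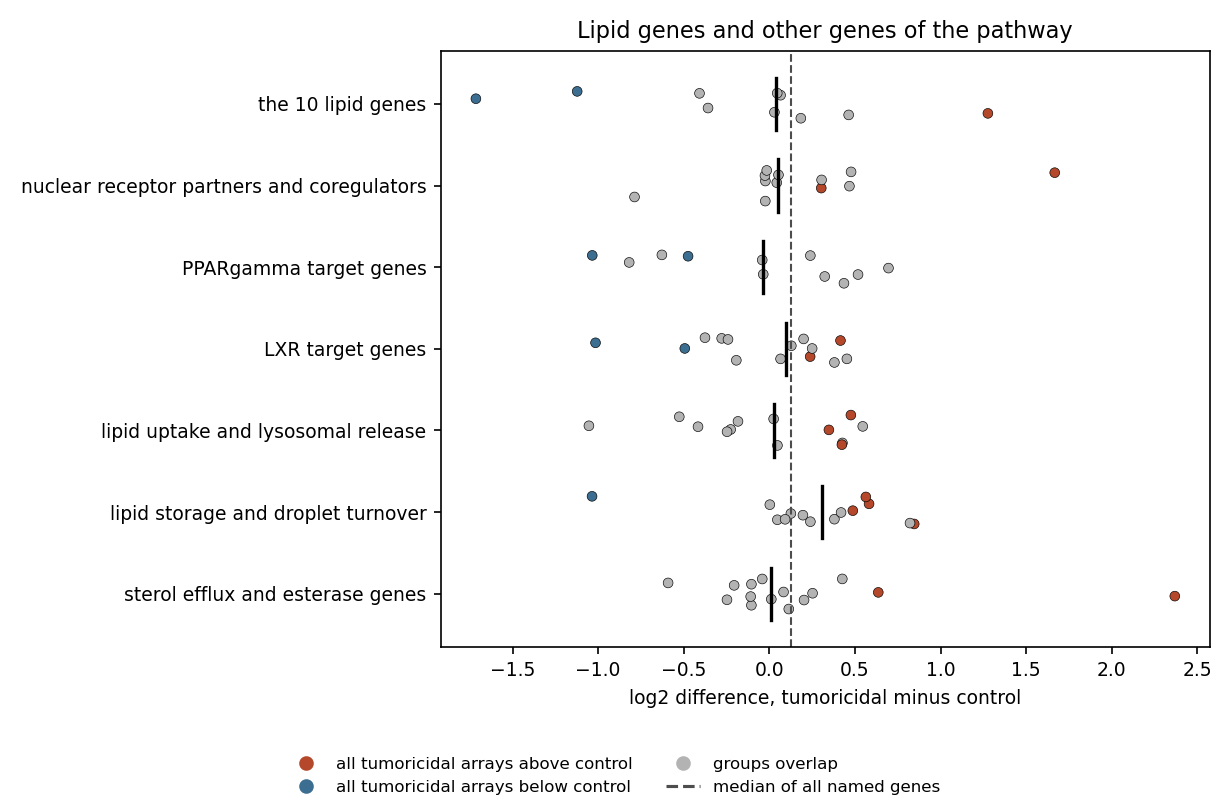
Log2 differences (tumoricidal minus control, x axis) of the tested genes in the 10-gene set and the 6 other lists, one point a gene, with a black bar at each list's median and a dashed line at the median of all named genes, 0.13. The points farthest out are Fabp4 and Pparg on the left and Lpl, Ppargc1b and Ch25h on the right, in red where all tumoricidal arrays lay above control and in blue where all lay below.

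Several members are also expressed by other cells, so marker lists were read on the same arrays. In bulk samples a smaller number of cells of a type and less RNA per cell cannot be told apart. Macrophage markers were bright on all arrays, with 10 of 11 measured, none near the floor, and a summed signal between 30957 and 45820 in tumoricidal and between 28180 and 36551 in control macrophages. Adipocytes are the cells best known for Fabp4, Pparg, Lpl and Cd36, and 7 of their 8 tested markers had a mean at or below the median signal. The exception was the hormone-sensitive lipase gene Lipe, with 66.1, 59.5 and 63.6 in tumoricidal macrophages, against 42.7 and 47.3 in control macrophages, and its groups were apart under all 3 scalings. Of the 11 adipocyte markers listed, 9 had a probe set with 1 symbol, and of these Lep was at the floor on all arrays. Adipoq was at most 8.68, near the floor, and was apart as lower under all 3 scalings. The 8 tested markers, Lipe included, had a median log2 difference of -0.25. They summed to between 101 and 161 in tumoricidal and between 123 and 127 in control macrophages. Endothelial markers, read because capillary cells also express Fabp4 and Cd36, summed to between 211 and 251 over 11 genes in tumoricidal and between 228 and 246 in control macrophages. Of these, Gpihbp1, which holds lipoprotein lipase on capillaries, had 10.6, 6.93 and the floor value in tumoricidal macrophages, against 18.9 and 20.5 in control macrophages. It and Cldn5 were apart as lower and Vwf as higher, and the part of endothelial cells in the Fabp4 difference was not tested.

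Markers of 3 other cell types moved with the groups. The 7 neutrophil markers measured of 9 summed to between 9659 and 11107 in tumoricidal and between 4300 and 7136 in control macrophages. The 8 T or NK cell markers measured of 10 summed to between 131 and 1038 in tumoricidal, the highest in replicate 2, and between 58.2 and 101 in control macrophages. The 9 plasma cell or myeloma markers summed to between 3598 and 4887 in tumoricidal and between 5638 and 6291 in control macrophages. Much of these sums came from Xbp1, which was higher in tumoricidal macrophages (log2 difference 0.30), while the median log2 difference of the 9 markers was -1.23. The largest difference, named after its values were seen, was -3.24 for Pou2af1, with 50.5, 45.3 and 69.5 in tumoricidal macrophages, against 483 and 544 in control macrophages. Groups were apart as higher for 5 of the neutrophil and 5 of the T or NK cell markers, and for 5 plasma cell or myeloma markers as lower and 2 as higher. The sums of macrophage, adipocyte, endothelial, fibroblast, keratinocyte and dendritic cell markers overlapped between groups. Of the 10 macrophage markers tested, 3 were still apart as higher and 0 as lower, with a median log2 difference of 0.32. Among named genes above the median signal, 24.2% were apart as higher. The part of these cells in the differences of Pparg, Fabp4, Lpl, Apoc2, Ppargc1b and Ch25h was not tested.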

How the data were processed

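The table deposited by the authors gives an intensity on a linear scale for each probe set and each of 5 arrays. Biotinylated cRNA was made from total RNA by the Affymetrix protocol, per the labels' protocols, while how probes were summarised is not stated in those labels. The mean of each array, with 2% trimmed from either end, was the same on all arrays, so the deposited values carry a global scaling. Each array was then scaled to a common median, because medians differed by up to 1.47 times. The 64 control probe sets were removed, values were raised to the pooled 25th percentile (4.79), log2 was taken, and 3984 probe sets that never exceeded the floor were left out.

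The 41053 others were compared with limma 3.58.1 (lmFit and eBayes, two-sided, Benjamini-Hochberg) in R 4.3.3, with no covariate, and the script was tested on simulated data. Python 3.11.15 and matplotlib 3.10.9 were used for counts and figures. A gene is its probe set with 1 symbol and the highest mean log2. Symbols came from the platform annotation, and 0 changed when checked by Entrez identifier against RefSeq, which also gave the promoter sequences (GRCm38.p6). Replicates are named biological in the titles. p-values measure only the spread between these arrays, and arrays give no counts, so their number limits the precision.

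Members and lists were chosen with earlier results of these data known. Named genes are all 10 members and, in each list, up to 2 per direction with the largest difference among those with groups fully apart and the higher group above the median signal. Other scalings, floors, filters, blocks and left-out arrays were tried. Nothing in the labels says that replicate numbers pair arrays, so the numbers were not taken to pair them. Same-numbered arrays correlated in their deviations from group means with r = 0.0235 for number 1 and -0.237 for number 2. With only 2 control arrays, the deviations of one mirror those of the other, so these correlations cannot decide whether arrays were paired.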

Additional observations from a re-analysis of the deposited data

How the results depend on the processing

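Pparg, Fabp4, Lpl, Abcg1 and Apoe kept their direction under every alternative run. Their log2 differences ran from -1.35 to -0.87, from -2.24 to -1.18, from 0.93 to 1.56, from 0.12 to 0.81 and from -0.66 to -0.08. No member passed limma's threshold under any of them, and the lowest adjusted p was 0.0754, for Pparg. With the deposited scaling the difference was -0.20 for Fabp5, -0.16 for Cd36, -0.18 for Plin2 and -0.0451 for Nr1h3. With quantile normalization it was -0.24 for Fabp5, -0.20 for Cd36 and -0.29 for Plin2. With the replicate number as a block, which leaves tumoricidal replicate 3 without a partner and so gives the same differences as leaving it out (the tests differ), it was -0.17 for Fabp5, -0.15 for Cd36 and -0.10 for Plin2, and 0 probe sets were called in either direction. Cd36 was -0.10 within side B, and over all probe sets Fabp5 averaged -0.11 and Cd36 -0.0407. With single arrays left out, Fabp5 ran from -0.17 to 0.22, Cd36 from -0.53 to 0.66, Plin2 from -0.25 to 0.34 and Abca1 from -0.94 to 0.13. The cause of these reversals was not tested.

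Probe sets called, 14 higher and 7 lower, became 0 and 0 with a floor at the 10th percentile, with the spike-in split as a block and with any array left out (0 to 0). They became 59 and 12 with log2(signal + 16), 168 and 25 above the median, and 177 and 25 with a trended robust prior, and testing floor-only probe sets too called 21 higher and 41 lower. Members with groups fully apart numbered 4 with the deposited scaling, where 25.2% of named genes were apart. With quantile normalization they numbered 6, where 24.6% of named genes were apart. They numbered 3 to 6 with 1 array left out, where fewer arrays make separation easier and the share of named genes was not computed. Pparg, Fabp4 and Lpl were among them each time. Probe sets with several symbols held no member, so that alternative gave no value. Dim probe sets near the floor, as 2 of Fabp4, limit what their fold changes show.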

Other observations

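Profiles over the 5 arrays were compared with those of the receptors among 12001 other genes above the floor on all arrays, as a description only, since so few arrays allow many close matches. The 5 genes closest to Pparg by Pearson's r were Eva1a, Zbtb20, Smr2, Dnase2a and Mef2c (r from 0.996 to 1.0), and 58 genes reached 0.95. Their log2 differences were -0.71, -0.42, -1.22, -0.85 and -1.62. Those closest to Nr1h3 were Khdrbs2, Nrtn, Nudt6, Slc39a1 and Myo19 (r from 0.991 to 0.997).

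Hilpda, a hypoxia-inducible droplet protein and PPAR target, followed the spike-in sides more than the groups. It had 453, 283 and 1684 in tumoricidal macrophages and 596 and 1443 in control macrophages, with side B arrays the highest of each group. It was picked after its values were seen, and what sets the sides apart was not tested.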
